A study of Rattus norvegicus with 12 samples.

Results

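This account covers 33 genes of pyruvate entry and the citric acid cycle, taken as the probe sets whose only gene symbol in the platform annotation is the symbol of a member, with the brightest probe set standing for a gene. The array held 31 of the 33 genes, in 40 of its 15923 probe sets and among 10412 genes with such a symbol. Fh and Dlat had no such probe set and were not analysed here. All 31 genes lay above the filter on dim probe sets (above the 40th percentile of the array on at least 3 arrays) and were tested. Gene expression was measured in ventricles of rats with 1 oligonucleotide array per rat, in 4 groups of 3. In 2 d IR and 7 d IR hearts (ischaemia-reperfusion), the left anterior descending coronary artery was occluded for 30 min and then released, and tissue was taken 2 or 7 days later. In 2 d sham and 7 d sham hearts the operation was done without occluding the artery. The sources used here give no strain, sex, age or part of the ventricle, so that injured and spared muscle are not told apart.

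Pyruvate, the end product of glycolysis, enters mitochondria through a carrier made of Mpc1 and Mpc2 and is turned into acetyl-CoA by the pyruvate dehydrogenase complex. Kinases (Pdk) phosphorylate and switch off that complex and phosphatases (Pdp) switch it on again. The citric acid cycle oxidises acetyl-CoA to carbon dioxide and feeds electrons to the respiratory chain, on which the heart depends for nearly all of its ATP, and the malate-aspartate shuttle carries reducing equivalents from the cytosol into mitochondria.

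Signals are the authors' MAS5 intensities on a linear scale. Changes are on the log2(signal + 195) scale with the standard error (SE) of limma, and a change was called at an adjusted p under 0.05 over all 10527 tested probe sets. On the first principal component, replicate 69 of the 2 d IR hearts had -18.29, where the others of its group had 4.11 and -0.18. Replicate 82 of the 7 d sham hearts had 23.61, where its group had 1.06 and 1.14. Of 24 cardiomyocyte markers tested, 1 was called lower at 2 d and 14 at 7 d (medians -0.36 and -0.42), and 0 were called higher. All 24 changes were negative on both days. Of 17 macrophage markers, 10 were called higher at 2 d and 12 at 7 d, and all 17 changes were positive. Of 20 fibroblast markers, 1 was called higher at 2 d and 13 at 7 d, with 17 and 20 positive changes. Over all tested probe sets, 0.589% were called lower and 1.88% higher at 2 d. At 7 d these shares were 5.85% and 6.22%. In whole tissue, fewer cells of a type and less RNA per cell cannot be told apart.

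At 7 days, genes from pyruvate entry to the last step of the cycle were lower in IR hearts. Of the 31 genes, 18 fell and 0 rose (58.1% lower, where 5.85% of all tested probe sets were called lower, 6.22% higher and 12.1% in either direction), and 28 of the 31 changes were negative (median -0.48, against 0.0073 over all tested probe sets). At 2 days 2 genes fell, Mpc1 and Pdp1, and 1 rose, Acly, where 0.589% of all probe sets were called lower, 1.88% higher and 2.47% in either direction. In all, 27 of the 31 changes were negative (median -0.32, against 0.0031). The IR arrays all lay below the sham arrays for 18 genes at 2 days and 25 at 7 days, where this held for 12.5% and 15.8% of all tested probe sets. Over all 31 genes the median distance from the sham mean of the day was -0.46, -0.23 and -0.23 on the 2 d IR arrays, with replicate 69 lowest. It was -0.07, -0.07 and 0.17 on the 7 d sham arrays, with replicate 82 highest.

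**Figure D1:**
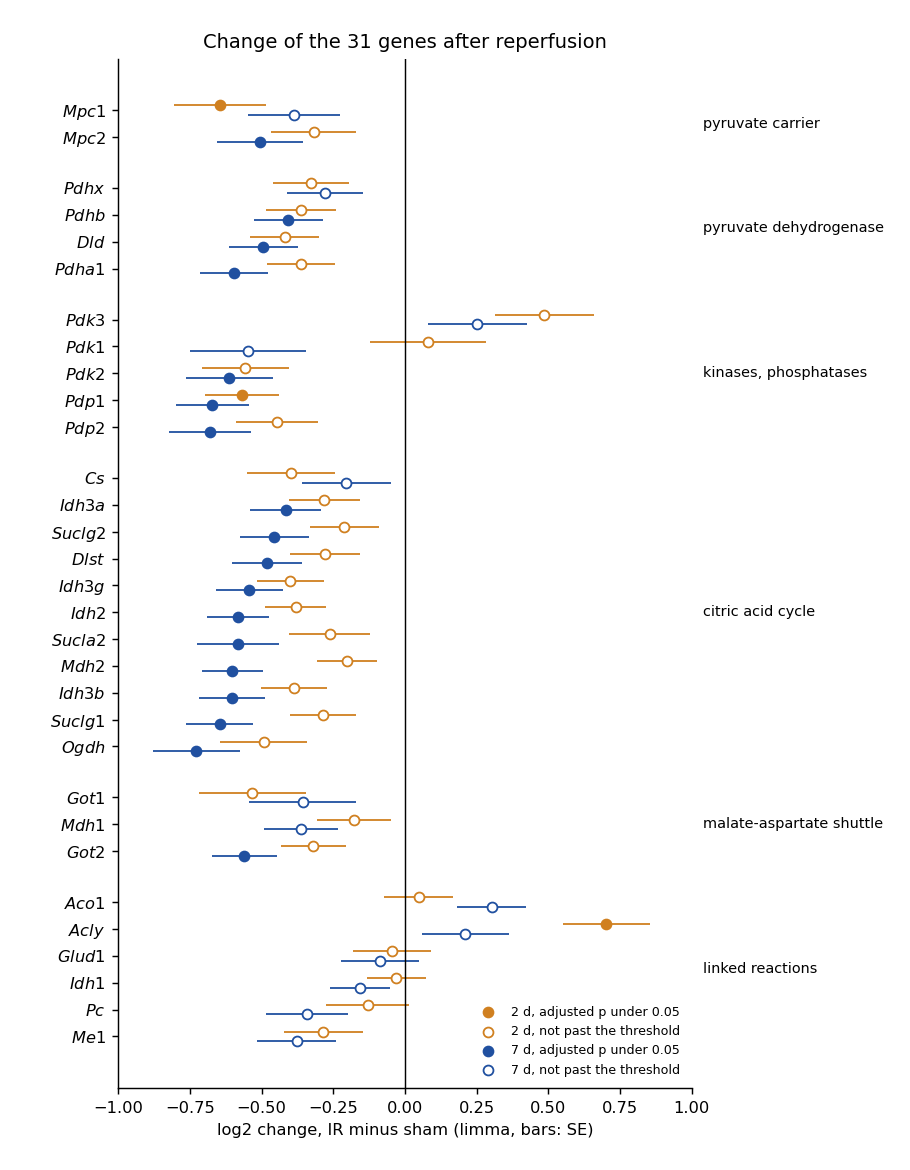
Log2 change (IR minus sham, with limma's SE) of the 31 genes at 2 days (orange) and 7 days (blue), grouped by role, where filled points passed adjusted p under 0.05. At 7 days 18 points lie left of 0 and are filled, most of them in the citric acid cycle, and among the linked reactions Acly at 2 days is the 1 filled point.

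The 7 d count rested in part on single arrays. It was 5 without 7 d sham replicate 82, 9 without 7 d IR replicate 44 and 11 with replicate 47 of that group left out, and 5 genes were called whichever of the 12 arrays was left out, Idh2, Idh3b, Mdh2, Pdp1 and Suclg1. The 2 d count of 3 was 0 without 2 d IR replicate 69 or without any 1 of the 2 d sham arrays (71, 72 and 74), 1 when 2 d IR replicate 76 was left out, 6 when it was 2 d IR replicate 73 and 7 when it was 7 d sham replicate 82. None of its 3 genes was called in every such fit. It was 2 without any 1 of the 7 d IR arrays or without 7 d sham replicate 80.

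RefSeq promoter windows (assembly GRCr8, from 250 bases before to 50 bases after the start of the gene) were matched for 27 of the 31 genes. The 250 bases before the start are shown 5′ to 3′ for both carrier subunits, for Ogdh, the gene with the lowest change at 7 days, for Mdh2, the member with the smallest p at 7 days, and for Acly, which was higher at 2 days, with the CCAAT box (CCAAT, or ATTGG where it lies on the other strand) in capitals.
Mpc1, chr1:54996959-54997208, minus strand: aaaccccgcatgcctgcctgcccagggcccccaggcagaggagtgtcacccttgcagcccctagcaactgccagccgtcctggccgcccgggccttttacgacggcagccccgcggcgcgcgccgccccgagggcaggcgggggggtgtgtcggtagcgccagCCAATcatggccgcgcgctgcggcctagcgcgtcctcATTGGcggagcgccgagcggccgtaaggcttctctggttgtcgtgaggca
Mpc2, chr13:80261006-80261255, plus strand: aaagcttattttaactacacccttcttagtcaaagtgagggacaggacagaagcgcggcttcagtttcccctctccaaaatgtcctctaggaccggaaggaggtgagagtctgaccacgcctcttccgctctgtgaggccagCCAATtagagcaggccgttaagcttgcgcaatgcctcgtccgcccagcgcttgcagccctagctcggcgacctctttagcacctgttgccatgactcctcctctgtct
Ogdh, chr14:85363781-85364030, plus strand: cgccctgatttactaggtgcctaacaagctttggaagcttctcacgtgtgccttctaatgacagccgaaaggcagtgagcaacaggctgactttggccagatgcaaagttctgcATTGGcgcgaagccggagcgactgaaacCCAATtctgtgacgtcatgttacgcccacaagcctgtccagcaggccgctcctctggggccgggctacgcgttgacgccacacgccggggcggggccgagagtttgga
Mdh2, chr12:26543842-26544091, minus strand: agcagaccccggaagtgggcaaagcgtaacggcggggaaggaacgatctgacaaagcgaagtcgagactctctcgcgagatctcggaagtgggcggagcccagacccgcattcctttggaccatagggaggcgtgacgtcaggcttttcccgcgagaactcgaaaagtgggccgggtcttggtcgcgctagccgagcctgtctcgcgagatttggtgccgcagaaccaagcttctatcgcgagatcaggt
Acly, chr10:85963632-85963881, minus strand: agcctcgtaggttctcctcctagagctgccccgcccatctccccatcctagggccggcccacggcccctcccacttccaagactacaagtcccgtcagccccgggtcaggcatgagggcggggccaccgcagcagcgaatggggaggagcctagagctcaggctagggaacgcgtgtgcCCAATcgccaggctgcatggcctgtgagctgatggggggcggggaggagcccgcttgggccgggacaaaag
The CCAAT box, the site of the factor NF-Y, occurs at 2 places in these bases of Mpc1 and Ogdh, at 1 place in those of Mpc2 and Acly and at none in those of Mdh2. On either strand it was in 15 of the 27 members' windows (55.6%), in 37.8% of the 7090 windows of tested genes and in 37.5% of all 33469 windows. The GC box (GGGCGG), a site of Sp factors, was in 19 members (70.4%), in 62.7% of the windows of tested genes and in 33.1% of all. The ETS site (CCGGAAG) was in 6 members (22.2%, against 17.2% and 8.75%), and the E-box (CACGTG) in 3 (11.1%, against 9.14% and 6.42%). The half-site of NRF1 (CATGCGC) was in the window of 1 member, Glud1 (3.7%, against 6.88% and 3.77%). The half-site of oestrogen-related receptors (AAGGTCA) was in 0 of 27, where 2.89% of the windows of tested genes and 4.61% of all held it. Motifs were counted on both strands whether or not they overlapped another, and these matches are letters in a window, not measured binding.

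Both subunits of the mitochondrial pyruvate carrier had lower signals in IR hearts on both days. The signal of Mpc1 was 15559, 23685 and 24133 in 2 d IR hearts, against 31207, 35108 and 31372 in 2 d sham hearts. All 3 IR hearts lay below all 3 sham hearts, and Mpc1 fell 1.56-fold (log2 change -0.64, SE 0.16, adjusted p = 0.0471). At 7 d its signal was 22637, 21407 and 21434 in 7 d IR hearts, against 27305, 24279 and 35220.1 in 7 d sham hearts, again without overlap, and it did not pass (-0.39, SE 0.16, adjusted p = 0.129). The signal of Mpc2 was 10772, 11425 and 12110.1 in 2 d IR hearts, against 16939, 12607 and 13668 in 2 d sham hearts. The groups were apart, but the change missed the threshold (-0.32, SE 0.15, adjusted p = 0.233). The signals at 7 d were 10791, 8494 and 10556 in 7 d IR hearts, against 11463, 14706 and 16739 in 7 d sham hearts, and Mpc2 fell 1.42-fold (log2 change -0.51, SE 0.15, adjusted p = 0.0404). The effects of the 2 days were not shown to differ for either subunit (adjusted p = 0.865 for Mpc1 and 0.892 for Mpc2). The calls were narrow: that of Mpc1 at 2 d held under 10 of 25 alternatives and that of Mpc2 at 7 d under 13 of 25. Without 2 d IR replicate 69, the lowest array, Mpc1 had -0.44 (adjusted p = 0.223), and without 7 d sham replicate 82 Mpc2 had -0.39 (adjusted p = 0.178).

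In the pyruvate dehydrogenase complex, 3 of the 4 genes held by the array fell at 7 days and 0 passed at 2 days, while all 4 had negative changes on both days. Pdha1 encodes the alpha subunit of the E1 enzyme, which carries the serines that the kinases phosphorylate. Its signal was 19313, 21352 and 22853 in 2 d IR hearts, against 26829, 28918 and 25991 in 2 d sham hearts. The signals at 7 d were 17223, 20789 and 17342 in 7 d IR hearts, against 24019, 28667 and 31522 in 7 d sham hearts. The groups were apart on both days, and Pdha1 fell 1.51-fold at 7 d (log2 change -0.60, SE 0.12, adjusted p = 0.00946; at 2 d -0.36, SE 0.12, adjusted p = 0.0993). A dimmer probe set of Pdha1 gave -0.16 (SE 0.15) at 7 d and did not pass (adjusted p = 0.523), and without 7 d sham replicate 82 the brighter one missed the threshold (-0.51, adjusted p = 0.051). Pdhb, the beta subunit of E1, had 11746, 11616 and 12173 in 7 d IR hearts, against 15781, 14062 and 17639.6 in 7 d sham hearts. It fell at 7 d (-0.41, SE 0.12, adjusted p = 0.043) and had -0.36 at 2 d (adjusted p = 0.109), and its call held under 12 of 25 alternatives. Dld, the E3 subunit, is shared with oxoglutarate dehydrogenase. Its signal was 8290.4, 8713 and 9803 in 2 d IR hearts, against 12784, 13345 and 10089 in 2 d sham hearts. On day 7 it was 8190.0, 8156 and 8835 in 7 d IR hearts, against 10956, 12619 and 12174 in 7 d sham hearts. The groups of both days did not overlap, and Dld passed at 7 d (-0.49, SE 0.12, adjusted p = 0.0196) but not at 2 d (-0.42, SE 0.12, adjusted p = 0.0703). Pdhx, which anchors E3 in the complex, did not pass on either day, with -0.33 (SE 0.13) at 2 d and -0.28 (SE 0.13) at 7 d, although its 7 d IR signals (2478, 2396 and 2375) all lay below those of 7 d sham hearts (3069.7, 2862 and 2985).

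Among the enzymes that switch the complex off and on, both phosphatases and the kinase Pdk2 fell at 7 days, while the kinase Pdk3 had positive changes on both days that did not pass. Pdp1, the calcium-stimulated phosphatase, had 3188, 3674 and 3539.6 in 2 d IR hearts, against 4498, 5581 and 5694 in 2 d sham hearts. At 7 d it had 1999.8, 2050.2 and 2117 in 7 d IR hearts, against 3336, 2985 and 3906 in 7 d sham hearts. It fell 1.48-fold at 2 d (log2 change -0.57, SE 0.13, adjusted p = 0.0366) and 1.59-fold at 7 d (log2 change -0.67, SE 0.13, adjusted p = 0.00876). Sham hearts had 3409 ± 465 at 7 d and 5258 ± 660.3 at 2 d (SD, n = 3), without overlap (-0.60, SE 0.13, adjusted p = 0.137). In IR hearts Pdp1 was the only member called between days, lower at 7 d than at 2 d (-0.70, SE 0.13, adjusted p = 0.0064). The signals of 2 d IR and 7 d sham hearts overlapped, and the change at 2 d was 0.03 (adjusted p = 0.941) when taken from 7 d sham hearts. At 7 d the call held under 25 of 25 alternatives and at 2 d under 15 of 25.

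Pdp2, the other phosphatase, had 838, 1083 and 1112 in 2 d IR hearts, against 1558, 1234 and 1550.1 in 2 d sham hearts. On day 7 it had 807, 939.8 and 786 in 7 d IR hearts, against 1482, 1287 and 1654 in 7 d sham hearts. The groups did not overlap on either day, and Pdp2 fell 1.6-fold at 7 d (log2 change -0.68, SE 0.14, adjusted p = 0.0117; at 2 d -0.45, SE 0.14, adjusted p = 0.0961). Without 7 d sham replicate 82 it missed the threshold (-0.60, adjusted p = 0.0598).

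Pdk2, a kinase of wide tissue range, had 7960.2, 10463 and 12308 in 2 d IR hearts, against 14370.4, 15386 and 15053 in 2 d sham hearts. The 7 d signals were 7684, 10363 and 8848 in 7 d IR hearts, against 13073, 12563 and 15706 in 7 d sham hearts. All IR hearts lay below all sham hearts on both days. It fell 1.53-fold at 7 d (log2 change -0.61, SE 0.15, adjusted p = 0.0206), and the change at 2 d missed the threshold (-0.56, SE 0.15, adjusted p = 0.0628). A dimmer probe set gave 0.03 at 7 d with overlapping groups (adjusted p = 0.939) and -0.44 at 2 d (adjusted p = 0.31). Leaving out 7 d sham replicate 82 (adjusted p = 0.0987) or 7 d IR replicate 44 (adjusted p = 0.0892) ended the 7 d call.

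Pdk1, a kinase induced by hypoxia, had 4371, 4693 and 4718 in 2 d IR hearts, against 5781, 2862 and 4877 in 2 d sham hearts. The 7 d values were 3489, 3196 and 4007 in 7 d IR hearts, against 5197, 4423 and 6394 in 7 d sham hearts. The 2 d sham signals ran from below to above those of the IR hearts, the 7 d groups were apart, and neither day passed (0.08, SE 0.20, adjusted p = 0.865 at 2 d and -0.55, SE 0.20, adjusted p = 0.0903 at 7 d). Another probe set of nearly the same brightness separated the groups on both days and was called lower at 7 d (-0.53, SE 0.11, adjusted p = 0.0111), with -0.35 (SE 0.11) at 2 d, so that the 2 probe sets disagreed in sign at 2 d. Pdk3, the dimmest of these genes, had 555, 549 and 663 in 2 d IR hearts, against 375, 352 and 363 in 2 d sham hearts, where every IR heart lay above every sham heart (0.49, SE 0.17, adjusted p = 0.125). At 7 d it had 1002, 760.3 and 684 in 7 d IR hearts, against 799.6, 643 and 519 in 7 d sham hearts, with overlapping groups (0.25, SE 0.17, adjusted p = 0.372). All 7 d sham hearts exceeded all 2 d sham hearts (0.59, SE 0.17, adjusted p = 0.263), and measured against 2 d sham hearts the 7 d IR hearts were higher by 0.84 (adjusted p = 0.00351). Pdk3 was above the 40th percentile of the array on 9 of the 12 arrays, and its 2 d sham signals were its lowest. Its changes from 2 d sham hearts thus start from a dim level near the filter.

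**Figure D2:**
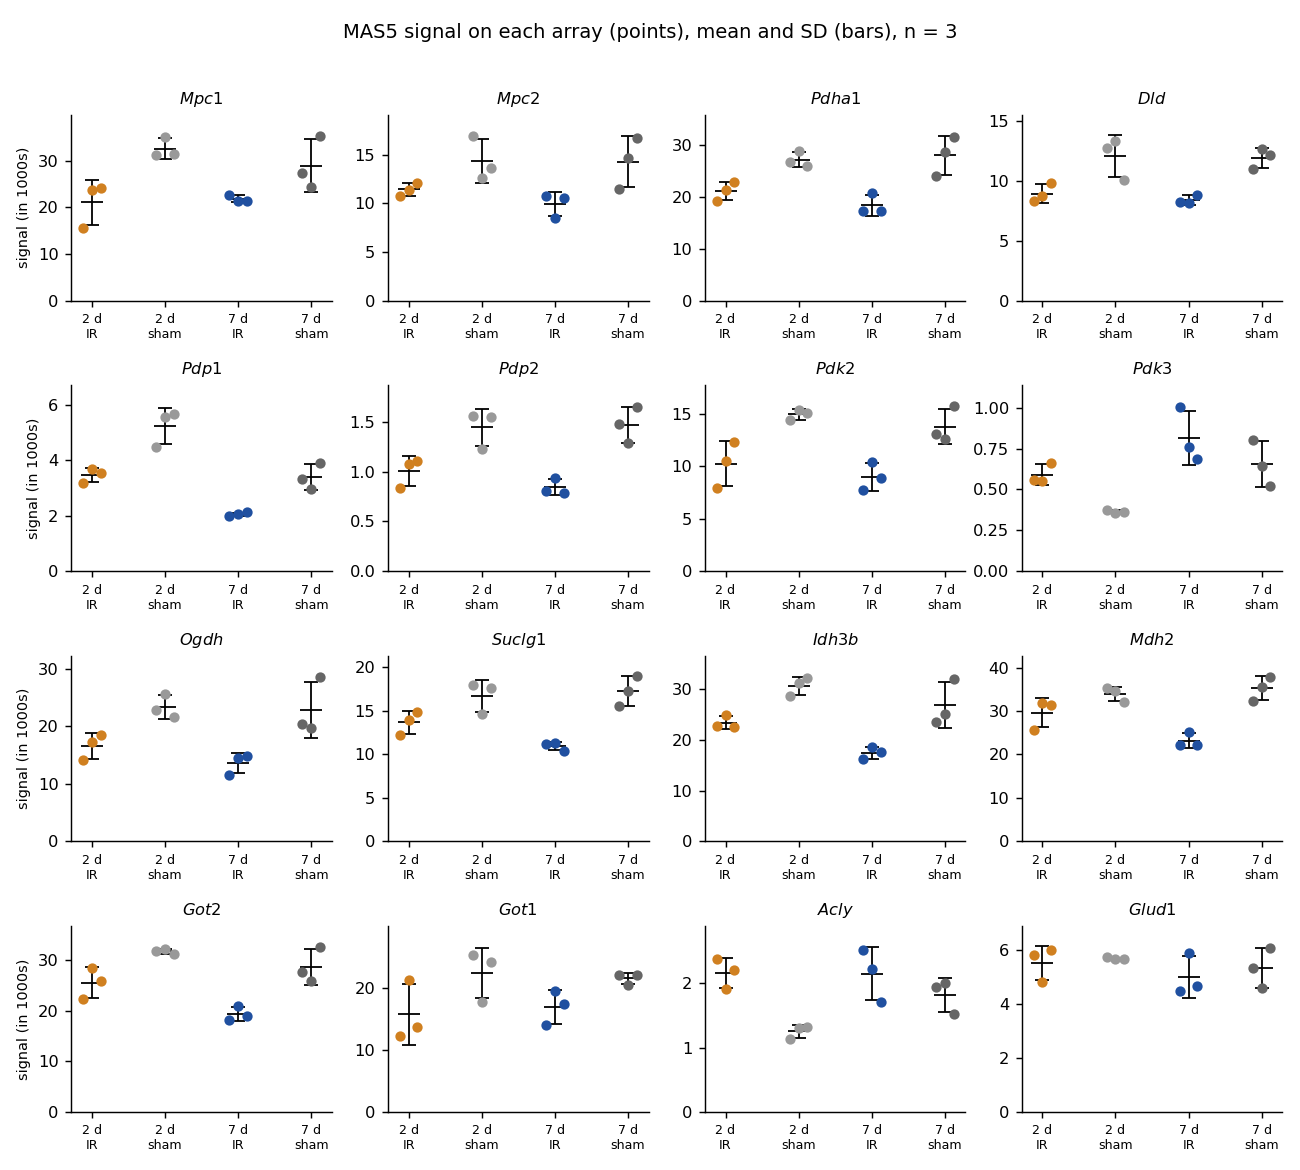
MAS5 signal on each of the 12 arrays for 16 of the genes, with the mean and SD of each group of 3; every axis starts at 0. The IR points of both days lie below the sham points of the same day for Mpc1, Mpc2, Pdha1, Dld, Pdp1, Pdp2, Pdk2, Ogdh, Idh3b, Mdh2 and Got2, and above them at 2 days for Acly and Pdk3.

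The citric acid cycle was the role with the largest share of calls: of 11 genes, 10 fell at 7 days and 0 passed at 2 days, with negative changes for all 11 on both days (median -0.58 at 7 d and -0.29 at 2 d). Cs, citrate synthase, which joins acetyl-CoA to oxaloacetate, was the exception at 7 d. Its brightest probe set had 12445, 17839.8 and 15524 in 2 d IR hearts, against 21563, 18047 and 20394 in 2 d sham hearts. On day 7 it had 13008, 17863 and 18221 in 7 d IR hearts, against 19441, 16299 and 20521 in 7 d sham hearts, where the groups overlapped and the change did not pass (-0.20, SE 0.15, adjusted p = 0.419; at 2 d -0.40, SE 0.15, adjusted p = 0.156). A dimmer probe set of Cs was called lower at 7 d (-0.46, SE 0.14, adjusted p = 0.0416) and another was not (-0.43, SE 0.16, adjusted p = 0.1).

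The 3 subunits of the NAD-dependent isocitrate dehydrogenase, the catalytic Idh3a and the regulatory Idh3b and Idh3g, fell together at 7 d. Idh3b had 16351, 18699 and 17552 in 7 d IR hearts, against 23595, 25119.9 and 32035 in 7 d sham hearts, without overlap, a 1.52-fold decrease (log2 change -0.60, SE 0.11, adjusted p = 0.00876). At 2 d it had 22779, 25010.1 and 22579 in 2 d IR hearts, against 28803, 31201 and 32274 in 2 d sham hearts, also without overlap, and did not pass (-0.39, SE 0.11, adjusted p = 0.0772). Idh3g changed by -0.54 (SE 0.12) at 7 d (adjusted p = 0.0124) and by -0.40 (SE 0.12) at 2 d (adjusted p = 0.0757). Idh3a changed by -0.42 (SE 0.12) at 7 d (adjusted p = 0.0417, a call that held under 12 of 25 alternatives) and by -0.28 (SE 0.12) at 2 d. Idh2, the mitochondrial NADP-dependent enzyme, had 37052, 34289 and 39643 in 7 d IR hearts, against 50285, 55844 and 60578 in 7 d sham hearts. It fell 1.5-fold (log2 change -0.58, SE 0.11, adjusted p = 0.00805) and had -0.38, SE 0.11, adjusted p = 0.0688 at 2 d, where the groups were also apart.

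Oxoglutarate dehydrogenase and the succinyl-CoA ligases followed the same course. Ogdh, the E1 enzyme of oxoglutarate dehydrogenase, had 14046, 17234 and 18412 in 2 d IR hearts, against 22745, 25651 and 21524 in 2 d sham hearts. The 7 d signals were 11544, 14464 and 14791 in 7 d IR hearts, against 20454, 19613 and 28466 in 7 d sham hearts. The IR hearts lay below the sham hearts on both days, and at 7 d Ogdh had the lowest change of the 31 genes, a 1.66-fold decrease (log2 change -0.73, SE 0.15, adjusted p = 0.0114; at 2 d -0.49, SE 0.15, adjusted p = 0.0857). Its highest 7 d sham value is that of replicate 82, without which the call was lost (-0.56, adjusted p = 0.0551). Dlst, the E2 subunit of that complex, fell at 7 d (-0.48, SE 0.12, adjusted p = 0.0234) and had -0.28 (SE 0.12) at 2 d with overlapping groups. Suclg1, the alpha subunit that both succinyl-CoA ligases share, had 11119, 11283 and 10363 in 7 d IR hearts, against 15524, 17301 and 18914 in 7 d sham hearts, a 1.56-fold decrease without overlap (log2 change -0.65, SE 0.12, adjusted p = 0.00763). At 2 d the groups overlapped (-0.29, SE 0.12, adjusted p = 0.172). Sucla2, the ATP-forming beta subunit, changed by -0.58 (SE 0.14) at 7 d (adjusted p = 0.0197) and Suclg2, the GTP-forming one, by -0.46 (SE 0.12) (adjusted p = 0.0265); at 2 d they had -0.26 and -0.21, neither past the threshold. The 7 d calls of Dld, Dlst, Sucla2, Suclg2 and Idh3a were lost without 7 d IR replicate 44 or 47 or 7 d sham replicate 82. The adjusted p of limma was then 0.0611 to 0.184. That of Idh3g was lost without replicate 44 or 82 (adjusted p = 0.0529 and 0.0637). Dld and Dlst also lost theirs without 7 d sham replicate 81 (0.0565 and 0.0522), and Suclg2 without 7 d IR replicate 48 (0.0651). Idh3a lost its call without 7 d sham replicate 81, 2 d IR replicate 76 or any 2 d sham array too (0.0525 to 0.0637).

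Mdh2, the mitochondrial malate dehydrogenase, closes the cycle and also serves the malate-aspartate shuttle. Its signal was 25728, 31803 and 31340.2 in 2 d IR hearts, against 35291, 34548 and 32155 in 2 d sham hearts. The signals at 7 d were 22106, 25136 and 22212 in 7 d IR hearts, against 32328, 35493 and 37913 in 7 d sham hearts. The decrease at 7 d was 1.52-fold with the smallest p of the 31 genes (log2 change -0.60, SE 0.11, adjusted p = 0.00726), and at 2 d the groups were apart without passing (-0.20, SE 0.11, adjusted p = 0.287). The difference between the days was -0.40 (SE 0.15) (adjusted p = 0.574).

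Of the 4 shuttle genes, the 2 mitochondrial ones, Mdh2 and Got2, fell at 7 d and the 2 cytosolic ones, Mdh1 and Got1, did not pass; whether these pairs differ from each other was not tested. Got2, the mitochondrial aspartate aminotransferase, had 22284, 28405 and 25927 in 2 d IR hearts, against 31865, 32232 and 31199.6 in 2 d sham hearts. The 7 d values were 18101, 20953 and 18987 in 7 d IR hearts, against 27679, 25802 and 32669 in 7 d sham hearts. It fell 1.47-fold at 7 d (log2 change -0.56, SE 0.11, adjusted p = 0.00998; -0.32, SE 0.11, adjusted p = 0.123 at 2 d), with no overlap on either day, and missed the threshold without 7 d sham replicate 82 (-0.46, adjusted p = 0.0545). A second probe set of Got2, at 2.1 to 221.7, did not pass the filter and was not tested. Got1, the cytosolic aminotransferase, had 12237, 21303 and 13607 in 2 d IR hearts, against 25361, 17786 and 24107 in 2 d sham hearts. At 2 d 1 IR heart lay within the sham range and the change did not pass (-0.53, SE 0.19, adjusted p = 0.121). At 7 d it had 13970.0, 19472 and 17331 in 7 d IR hearts, against 22023, 20503 and 22127 in 7 d sham hearts, apart but not past the threshold (-0.36, SE 0.19, adjusted p = 0.231). Mdh1, the cytosolic malate dehydrogenase, had 33614, 34768 and 35059 in 7 d IR hearts, against 38869, 43675 and 51527 in 7 d sham hearts, and its brighter probe set did not pass (-0.36, SE 0.13, adjusted p = 0.0812; at 2 d -0.18, SE 0.13, adjusted p = 0.465), while its dimmer one was called lower at 7 d (-0.57, SE 0.15, adjusted p = 0.0291).

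Of the 6 genes of linked reactions, 0 were called lower on either day and 1 was called higher, at 2 days. Over all tested probe sets, 0.589% were called lower and 1.88% higher at 2 d, and 5.85% and 6.22% at 7 d. For 6 genes, 0 called lower is not set apart from those shares. Acly, ATP citrate lyase, splits citrate in the cytosol into acetyl-CoA and oxaloacetate for lipid synthesis. Its signal was 2378, 1918 and 2203 in 2 d IR hearts, against 1138, 1299.9 and 1323 in 2 d sham hearts, and all IR hearts lay above all sham hearts. It rose 1.63-fold (log2 change 0.70, SE 0.15, adjusted p = 0.0308). On day 7 it had 2512, 2229.8 and 1704 in 7 d IR hearts, against 1944, 1999 and 1518 in 7 d sham hearts, with overlapping groups (0.21, SE 0.15, adjusted p = 0.395). The 7 d sham hearts all lay above the 2 d sham hearts (0.47, SE 0.15, adjusted p = 0.326). Set against the 7 d sham hearts, the change at 2 d was 0.23 (adjusted p = 0.463). Set against the 2 d sham hearts, that at 7 d was 0.68 (adjusted p = 0.00554). The 2 d call held under 15 of 25 alternatives and was lost without 2 d IR replicate 69 or 76 or without any 1 of the 2 d sham arrays (adjusted p 0.0559 to 0.172).

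The other linked genes did not pass on either day. Aco1, the cytosolic aconitase that doubles as an iron-regulatory protein, had 1947, 1730.0 and 1851 in 7 d IR hearts, against 1389, 1367 and 1623 in 7 d sham hearts, with the IR hearts above the sham hearts (0.30, SE 0.12, adjusted p = 0.118), and 0.05 (SE 0.12) at 2 d. Me1, the cytosolic malic enzyme, had 2611, 2577 and 2284 in 7 d IR hearts, against 2723, 3383 and 3856 in 7 d sham hearts, with the IR hearts below the sham hearts (-0.38, SE 0.14, adjusted p = 0.0891), and -0.28 (SE 0.14) at 2 d; its other probe set gave 0.05 and -0.01. Pc, pyruvate carboxylase, which refills the cycle with oxaloacetate, had 531, 608 and 645 in 7 d IR hearts, against 758, 812 and 845 in 7 d sham hearts, again with the IR hearts lower (-0.34, SE 0.14, adjusted p = 0.137), and -0.13 (SE 0.14) at 2 d. Idh1, the cytosolic isocitrate dehydrogenase, changed by -0.03 (SE 0.10) at 2 d and -0.16 (SE 0.10) at 7 d. Glud1, glutamate dehydrogenase of the mitochondrial matrix, had 4462, 5897 and 4669 in 7 d IR hearts, against 5336, 4583 and 6068 in 7 d sham hearts, overlapping, with -0.09 (SE 0.14) at 7 d and -0.04 (SE 0.14) at 2 d. Its other probe set gave -0.31 (SE 0.16, adjusted p = 0.22) at 7 d and -0.16 (SE 0.16, adjusted p = 0.612) at 2 d, also with overlapping groups.

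**Figure D3:**
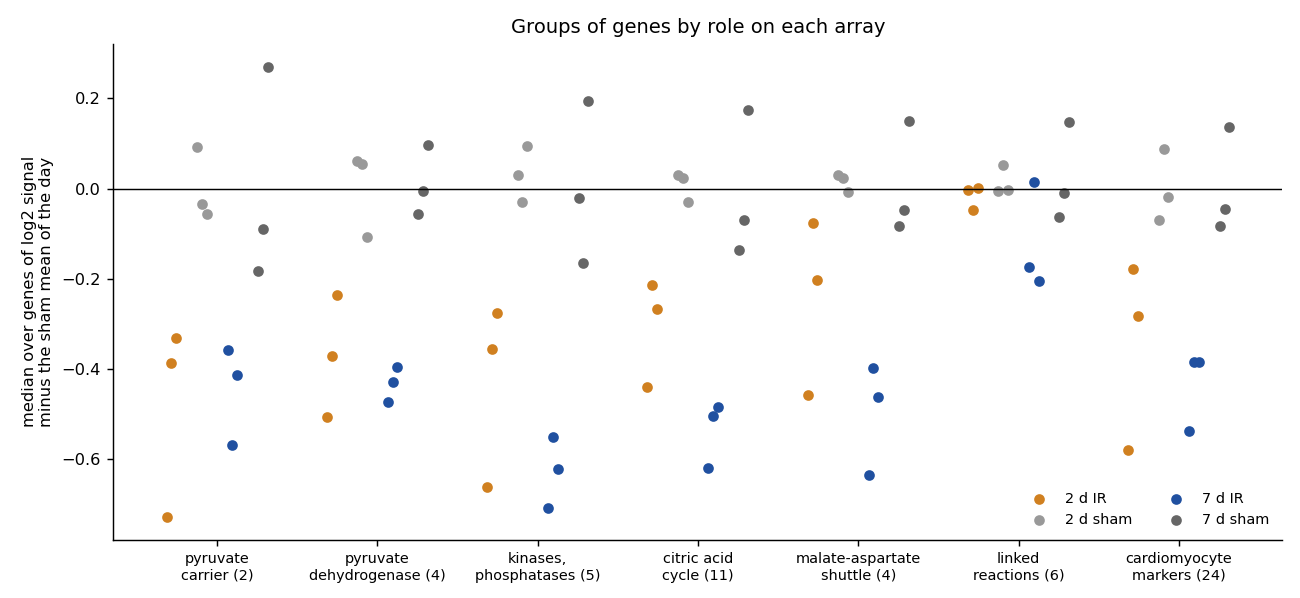
Median over the genes of a role of the log2 signal minus the sham mean of the same day, with 1 point per array and the number of genes in parentheses; Mdh2 counts in the cycle and in the shuttle. In the first 5 roles all IR arrays lie below all sham arrays of the day, and the cardiomyocyte markers on the right run alike, with 2 d IR replicate 69 lowest at -0.58.

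The test of the difference between the effects of the 2 days called 0 of the 31 genes (limma, lowest adjusted p = 0.574), where 1 of all tested probe sets was called (0.0095%). An unadjusted p under 0.05 was reached by 4 of the 31, Suclg1, Mdh2, Pdk1 and Acly, and by 752 of all 10527 tested probe sets. Between sham hearts, 7 d against 2 d, 0 of the 31 genes passed (limma, lowest adjusted p = 0.137, that of Pdp1), where 0.076% of all probe sets did. Here 3 genes had an unadjusted p under 0.05, as did 992 of the 10527 probe sets, so that count is not read as a result. The 7 d sham arrays all lay above the 2 d sham arrays for 2 genes, Acly and Pdk3, and below them for 2, Pdp1 and Aco1, where this held for 7.27% and 7.07% of all probe sets. Between IR hearts, 7 d against 2 d, 1 gene passed, Pdp1, where 3.45% of all probe sets did in either direction and 0.997% were lower at 7 d. In all, 26 of the 31 differences were negative (median -0.21), where 51.3% of those of all tested probe sets were (median -0.0085). The 7 d IR arrays lay below all 2 d IR arrays for 11 genes and above them for 1, Pdk3, where this held for 9.91% and 10.6% of all probe sets. These comparisons share arrays with those of IR and sham hearts. Idh3b, lower at 7 d than at 2 d in IR hearts on every array, came next with -0.42 (SE 0.11) (adjusted p = 0.0642).

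Of 46 further genes of pyruvate and cycle metabolism, 31 were tested. At 7 d 13 fell (41.9%), 0 rose and 18 did not pass. Over all tested probe sets, 5.85% were called lower and 6.22% higher. At 2 d 0 passed, where 2.47% of all tested probe sets did in either direction. Changes were negative for 30 of the 31 at 7 d (median -0.39) and for 25 at 2 d (median -0.27). The medians over all tested probe sets were 0.0073 at 7 d and 0.0031 at 2 d. Among the 13 that fell, the 6 with the largest changes at 7 d were Dbt, the E2 subunit of branched-chain ketoacid dehydrogenase (-0.91, SE 0.23), Me3, a mitochondrial malic enzyme (-0.79, SE 0.18), Sirt3, a mitochondrial deacetylase (-0.70, SE 0.20), Slc25a13, an aspartate-glutamate carrier of the shuttle (-0.68, SE 0.17), Slc25a11, its oxoglutarate-malate carrier (-0.65, SE 0.14), and Aldh5a1, succinate-semialdehyde dehydrogenase, which feeds succinate into the cycle (-0.60, SE 0.18). Pdk4, the kinase induced by fasting and fatty acids, did not pass on either day (0.35 and -0.45, adjusted p = 0.574 and 0.386).

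At 7 d the respiratory chain and fatty acid oxidation lists had larger shares of calls, and the cardiomyocyte markers had a like share. The share of the further pathway genes above was smaller (41.9%). Called lower were 49 of 66 respiratory chain genes (74.2%, median -0.46) and 23 of 28 fatty acid oxidation genes (82.1%, median -0.62). So were 14 of 24 cardiomyocyte markers (58.3%, median -0.42), against 18 of 31 genes (58.1%, median -0.48) here. Differences between lists were not tested. At 2 d the shares lower were 3.03%, 3.57% and 4.17%, against 6.45% here.

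**Figure D4:**
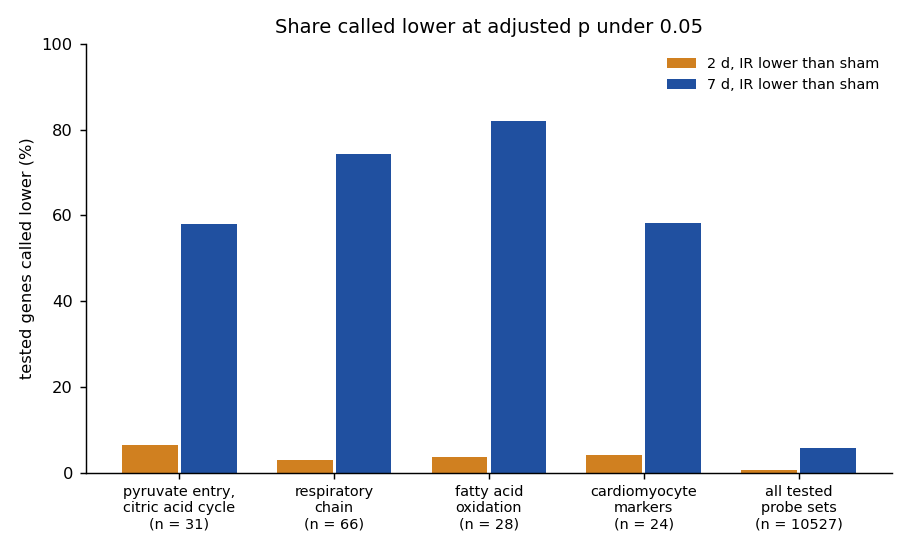
Percentage of tested genes called lower in IR than in sham hearts (adjusted p under 0.05) at 2 days (orange) and 7 days (blue) for 4 lists and for all tested probe sets, with n below each. The 31 genes reach 58.1% at 7 days, beside 5.85% of all probe sets.

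Some other measures also differed between IR and sham hearts, and others overlapped. The summed signal of the 24 cardiomyocyte markers was 751824 to 989460 in 2 d IR and 1041160 to 1161470 in 2 d sham hearts, and 720301 to 800624 in 7 d IR and 971873 to 1137620 in 7 d sham hearts, without overlap. The summed signal of the 17 macrophage markers was 109692 to 170680 in 2 d IR and 49260 to 70493 in 2 d sham hearts, and 119367 to 137667 in 7 d IR and 48174 to 82838 in 7 d sham hearts. That of the 20 fibroblast markers was 317870 to 400597 in 7 d IR and 134166 to 237661 in 7 d sham hearts, where replicate 82 was lowest, and 154574 to 186452 in 2 d IR and 122728 to 144177 in 2 d sham hearts. For Actb, the log2 ratio of the probe set at the 3' end to that at the 5' end is higher where RNA is less intact. It was 0.11 to 0.23 in 7 d IR and 0.39 to 0.83 in 7 d sham hearts. At 2 d the groups overlapped (0.16 to 0.30 in IR and 0.13 to 0.31 in sham hearts). The same log2 ratio of Gapdh overlapped on both days, at 0.28 to 0.38 in 7 d IR and 0.31 to 0.44 in 7 d sham hearts, and at 0.25 to 0.44 in 2 d IR and 0.20 to 0.33 in 2 d sham hearts. The part of these measures in the decreases was not tested.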

How the data were processed

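RNA from 12 rat ventricles, 1 array each, was hybridised to a rat expression array of 15923 probe sets, 57 of them controls. The deposited values are intensities on a linear scale, made by the authors with MAS5, per the submitters' processing notes; no version is given in the sources used here. The 2% trimmed mean was 1500.4 to 1500.5 on every array, which shows that the authors scaled the arrays, and array medians were 637.3 to 719.0. Scaling sets total signal equal, so changes are relative to the other probe sets of an array. Arrays give no read depth; their number, 3 per group, limits the precision. The platform annotation gave 12789 probe sets 1 gene symbol, 312 several and 2822 none.

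Values were taken as log2(signal + 195.45), the median over arrays of the 20th percentile. Probe sets above the 40th percentile of their array on at least 3 arrays (10527) were fitted with limma 3.58.1 in R 4.3.3 as group means over all 12 arrays with an intensity trend, and p-values were Benjamini-Hochberg adjusted over all of them. A fold is on this scale and understates changes of dim genes. The groups come from the sample titles. The labels do not name the rats' batches, so none could be tested, and p-values measure the spread between these arrays. No 2 arrays held identical values. The brightest probe set stands for a gene. Every member is named; values of each array are given for the carrier, the kinases and phosphatases and, in the other roles, for up to 4 members with the smallest p and members called higher, and some others beside them. Of further pathway genes, the 6 with the largest called change are named; Pdk4 and Pck2 were chosen after their values were seen. The members and lists were chosen with earlier results of these data known. Alternatives were other pseudocounts, median centring, quantile normalization, other filters, no trend, array weights, the mean of a gene's probe sets, only the compared groups, other sham arrays and left-out arrays. Promoter windows are from RefSeq, assembly GRCr8.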

Additional observations from a re-analysis of the deposited data

How the results depend on the processing

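No paired analysis was possible because the groups share no replicate numbers. Of the 774 values of single genes at 2 d, 713 kept their direction and side of the threshold, 34 lost and 12 gained a call and 15 turned sign; of 774 at 7 d these were 686, 70, 16 and 2. The median of the 31 genes stayed negative in all settings on both days. The number of the 31 genes called at 2 d (3) was 0 with no filter, 0 with no intensity trend, 6 with array weights, 0 with the 7 d sham arrays as control and 0 without 2 d IR replicate 69 and 7 d sham replicate 82 together; at 7 d (18) it was 11 without both. Between sham days (0) it was 1 with array weights and 1 without both, and between IR days (1) it was 4 and 7. With 1 array left out, the 5 counts of genes ran from 0 to 7 at 2 d, 5 to 20 at 7 d, 0 to 0 for the difference, 0 to 1 between sham days and 1 to 4 between IR days.

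Over all probe sets, the 260 calls at 2 d became 77 with no filter, 68 with no trend, 75 with the other sham arrays and 70 without both arrays (2 to 515 with 1 array left out). The 1271 calls at 7 d became 2505 with the 2 d sham arrays, 2545 with all 6 sham arrays and 541 without both (175 to 1463). The 1 call of the difference became 0 with no filter, 0 with no trend, 3 with array weights and 0 without both (0 to 6). The 8 between sham days became 1, 2, 25 and 83 under these 4 settings (1 to 76). The 363 between IR days became 577 with array weights and 556 without both (192 to 439). The cause of these shifts was not tested.

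The sign turned, always for a change that did not pass in that setting, for these genes at 2 d. Aco1 had -0.0081 with median centring, -0.018 without both arrays and -0.018 without replicate 69 (-0.018 to 0.12 with 1 array left out). Idh1 had 0.017 with quantile normalization, 0.082 with the other sham arrays and 0.026 with all 6. Pdk1 had -0.13 with the mean of its probe sets, -0.19 with the other and -0.056 with all 6 sham arrays and -0.20 without 2 d sham replicate 72 (-0.20 to 0.28). With the other sham arrays Pdk3 had -0.11 and Pdp1 0.029. Glud1 had 0.055 with the other and 0.0054 with all 6 sham arrays and 0.050 without 2 d IR replicate 73 (-0.10 to 0.050). At 7 d it had 0.0075 without both arrays and 0.0075 without 7 d sham replicate 82 (-0.21 to 0.0075).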

Other observations

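Pck2, the mitochondrial phosphoenolpyruvate carboxykinase, had the highest change of the 31 further pathway genes tested, and was chosen after its values were seen. Its dim signal was 856.2, 94.4 and 658 in 2 d IR hearts, against 133.1, 242.4 and 33.4 in 2 d sham hearts, where 1 IR heart lay within the sham range. At 7 d it was 734.1, 774.4 and 247.3 in IR hearts, against 78.9, 174 and 172.1 in sham hearts, without overlap. Neither change passed in limma (0.99, SE 0.44, adjusted p = 0.211 at 2 d and 1.14, SE 0.44, adjusted p = 0.108 at 7 d). The sham signals of Pck2 lay below the filter level on both days, so it was tested only through IR arrays, where it is high. Its rank and the separation at 7 d rest in part on that selection and are no support for a rise.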
